A study of Homo sapiens with 9 samples.

Results

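The mRNA of ALKBH5 and of 9 other genes of the m6A RNA machinery was followed in SKMEL28 melanoma cells with knockdown of p16 and of ATR. The 10 genes were found by their symbols among the 48162 genes of the deposited count table, and all 10 were among the 15776 genes that passed the filter on low counts. ALKBH5 itself was picked because its mRNA was low in the cells with ATR knockdown, so its values in the comparisons that hold those cells are given as a description, without a test. The other 9 genes were chosen by what their products do.

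SKMEL28 is an established human melanoma cell line. RNA sequencing covered 9 libraries, 3 from each of 3 groups. All 3 groups had received lentivirus and puromycin, at 1 µg/ml for 3 days, in medium with 5% serum. The study asked how ATR, a kinase of the DNA damage response, acts on cells with knockdown of p16, the cell cycle inhibitor encoded by CDKN2A. The shCont cells carried a hairpin to GFP. The shp16 cells carried a hairpin to p16, and the shp16+shATR cells carried hairpins to p16 and to ATR. No group had ATR knockdown without p16 knockdown. More than a single ATR hairpin was used in the study, and which of them these libraries carried is not stated, so loss of ATR and any other action of the hairpin cannot be told apart. For the mRNA of LSS, another gene, the study describes the replicates as technical. No label says that these libraries came from separate cultures, so the p-values measure the spread between them, which may be technical. Tests were made with edgeR's quasi-likelihood test over the 15776 genes, with Benjamini-Hochberg adjustment and a threshold of 0.05. A gene past that threshold is said to have passed. Levels are given as CPM after TMM scaling, that is, counts scaled to a common library total, and as FPKM where genes are compared with each other, since FPKM also divides by gene length.

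N6-methyladenosine, or m6A, is the most frequent internal modification of messenger RNA. It is written by a complex in which METTL3 is the catalytic subunit, METTL14 its RNA-binding partner and WTAP the adaptor that holds the pair in nuclear speckles. The dioxygenases ALKBH5 and FTO can remove it. Proteins with a YTH domain bind the mark: YTHDF1, YTHDF2 and YTHDF3 in the cytoplasm, where YTHDF2 in particular speeds decay of bound mRNA, YTHDC1 in the nucleus, where it acts in splicing and export, and the helicase YTHDC2, known for its part in meiosis. The mark itself was not measured here.

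RNA came from bulk cultures, in which fewer cells of a type and less RNA per cell cannot be told apart. Library totals ran from 17314662 to 23588174 counts. ATR mRNA was at 39.9, 40.0 and 41.0 CPM in the shp16+shATR libraries and at 93.5, 83.4 and 85.6 CPM in the shp16 libraries, a log2 fold change of -1.12 (SE 0.220, adjusted p = 0.0128). CDKN2A was at 125.9 ± 31.7 CPM in shCont and 90.5 ± 11.2 CPM in shp16 (SD, n = 3), and its log2 fold change of -0.48 did not pass (SE 0.163, adjusted p = 0.0723). All shp16 libraries were below all shCont libraries, as for 16.8% of all genes tested. In shp16+shATR the CDKN2A mean was 85.0 CPM, and its log2 fold change of -0.57 against shCont passed (SE 0.163, adjusted p = 0.0263). The libraries labelled shCont replicate 1 and shp16 replicate 1 stood apart from the rest over all genes, and without them the biological coefficient of variation went from 0.149 to 0.0553. Results that turn on these libraries are therefore given with and without them. All 7 melanocyte lineage markers were expressed, with a summed level between 7680 and 14880 CPM. The summed level was at most 1.02 CPM for 3 leukocyte markers and at most 0.312 CPM for the endothelial marker in the table, with PTPRC and CD3E at 0 in all libraries. Keratinocyte and epithelial markers summed to between 2.17 and 3.55 CPM in shCont and to between 22.03 and 27.4 CPM in the other groups, most of it CDH1, and KRT5 was at 0 in shCont. Their part in the results was not tested.

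The gene on which the results turn is ALKBH5 (ENSG00000091542), on the plus strand of chromosome 17 at 18086392 to 18113268 in the table's coordinates. The submitters' notes name GRCh38, but these coordinates are not those of GRCh38, and their build was not determined. The 250 bases before its RefSeq start are printed because no other member's mRNA differed so widely between groups. They lie at chr17:18183578-18183827 of GRCh38.p14, on the plus strand. GENCODE 29 lists 2 transcripts of the gene, of which 1 spans this window as intron, and 0 exons overlap it. Capitals mark the 2 matches to the motifs searched.

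ALKBH5 promoter: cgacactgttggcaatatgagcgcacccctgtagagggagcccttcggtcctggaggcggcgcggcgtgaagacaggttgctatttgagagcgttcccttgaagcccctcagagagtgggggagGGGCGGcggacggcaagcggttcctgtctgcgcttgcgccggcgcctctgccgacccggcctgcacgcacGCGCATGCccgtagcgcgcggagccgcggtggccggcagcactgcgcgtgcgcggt

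The window held 70% G and C, against a median of 58% over 35116 RefSeq promoters, and 32 CpG sites. Both strands were searched, and no matches overlapped each other in it. The Sp/KLF motif GGGCGG matched at 1 place and occurs in 42.6% of all these promoters. The NRF1 motif GCATGCGC also matched at 1 place, where the printed strand reads GCGCATGC, and occurs in 2.63% of them. CCGGAA for ETS factors, CCAAT for NF-Y, TGACG for cAMP response and TTTCCCGC or TTTGGCGC for E2F were not found in this window. Of the members, 9 matched the promoter table, all but YTHDF3. Of these 9, METTL3 held the other NRF1 match and 6, ALKBH5 included, held the Sp/KLF motif. A match describes letters in the window and not a site in use.

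ALKBH5 mRNA was abundant and, after TMM scaling, nearly constant within each group. It was at 107.5, 100.3 and 98.8 CPM in the 3 shCont libraries. In the shp16 libraries it was at 89.7, 89.2 and 89.8 CPM. In the shp16+shATR libraries it was at 28.8, 26.7 and 28.9 CPM. Every shp16+shATR library was thus far below every other library, and the 3 groups did not overlap. The group means were 102 ± 4.65, 89.6 ± 0.360 and 28.2 ± 1.27 CPM (SD, n = 3).

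**Figure D1:**
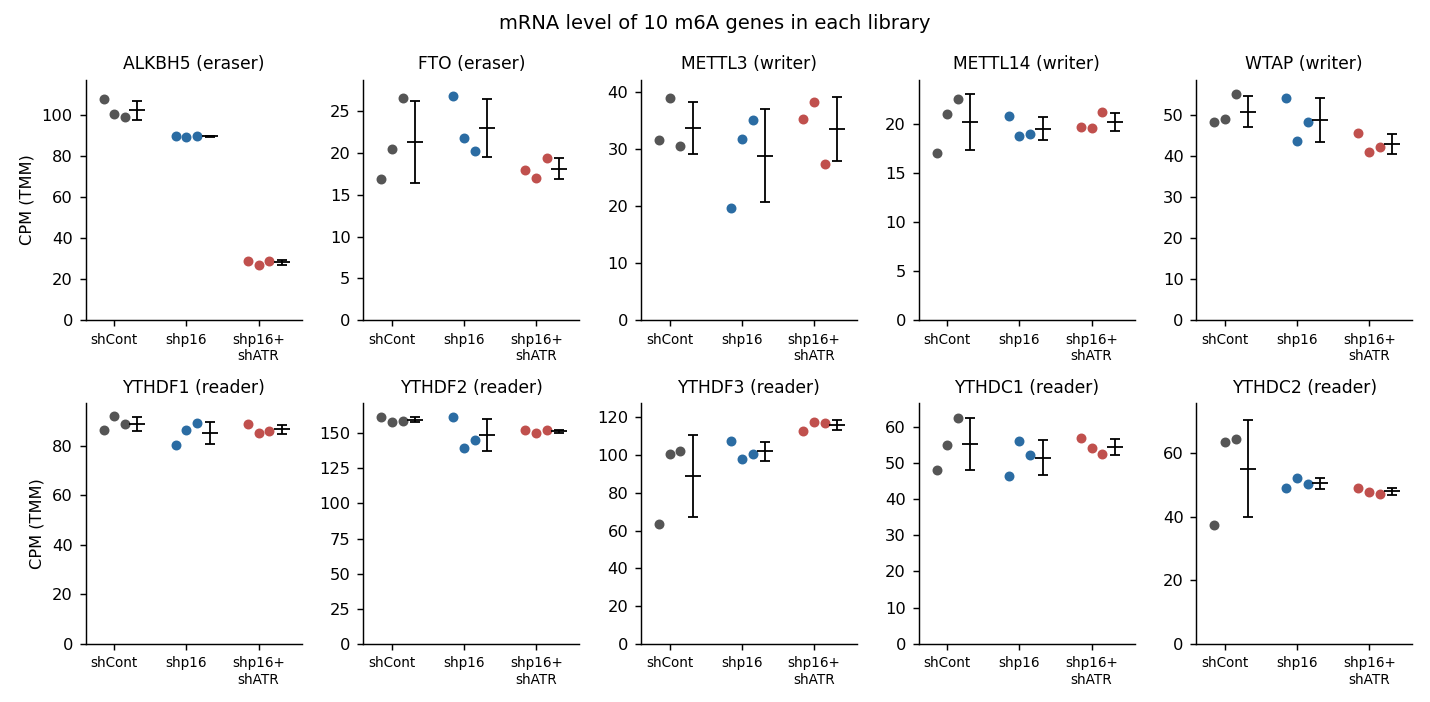
Level of each of the 10 genes in CPM after TMM scaling, with a linear axis from 0 in each panel. Points are the 9 libraries by group, and the bar beside them is the mean with its SD (n = 3). ALKBH5 in shp16+shATR, at 26.7 to 28.9 CPM, stands apart from its other libraries, while in METTL3, METTL14 and YTHDC1, for example, the 3 groups share their range.

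Against shp16, the ALKBH5 level in shp16+shATR was 31.4% as high, or 3.18-fold lower, a log2 difference of -1.67 (SE 0.0973). Against shCont it was 27.6% as high, a log2 difference of -1.86 (SE 0.0977). The gene was chosen for this difference, and the values describe it. Among the 10737 genes with a mean of at least 5 CPM, 0 had a lower log2 fold change in shp16+shATR against shp16. Over all 15776 genes 32 had a lower one, all of them genes with a mean under 5 CPM. The same difference was present in the counts as deposited, which were 500, 617 and 565 in shp16+shATR and between 1727 and 1880 in shp16.

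In shp16 against shCont, which shares the shp16 libraries with the contrast ALKBH5 was picked in, the 3 shp16 libraries were below the 3 shCont libraries. The log2 fold change was -0.19 (SE 0.0936, 95% confidence interval -0.39 to 0.01) and did not pass (adjusted p = 0.198). Of all genes tested, 16.8% had all shp16 libraries below all shCont libraries.

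ALKBH5 and ATR levels did not order the libraries in the same way. The library labelled shCont replicate 1 had 45.9 CPM of ATR, near the 39.9 to 41.0 CPM of shp16+shATR, whereas shCont replicates 2 and 3 had 93.5 and 96.4 CPM. The same library had 107.5 CPM of ALKBH5, the highest of the 9. Its ATR level was thus low for a control without ATR knockdown. This library stood apart over all genes, and YTHDF3 and YTHDC2 were also lowest there, at 63.7 and 37.4 CPM. Its CDKN2A level, 162.1 CPM, was the highest of the 9. Among other genes, XRN1, CNOT6L and CNOT1, of 8471 bases or more, were also lowest in this library, at 28.3, 12.8 and 112.4 CPM. IGF2BP1, of 8274 bases, was highest there, at 4.15 CPM, and ATR has 8249 bases. Why the ATR level of this library was low, and whether gene length plays a part, was not tested. Without the library labelled shCont replicate 1, the ALKBH5 difference between shp16+shATR and shp16 was again -1.67 on the log2 scale (SE 0.0641).

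**Figure D2:**
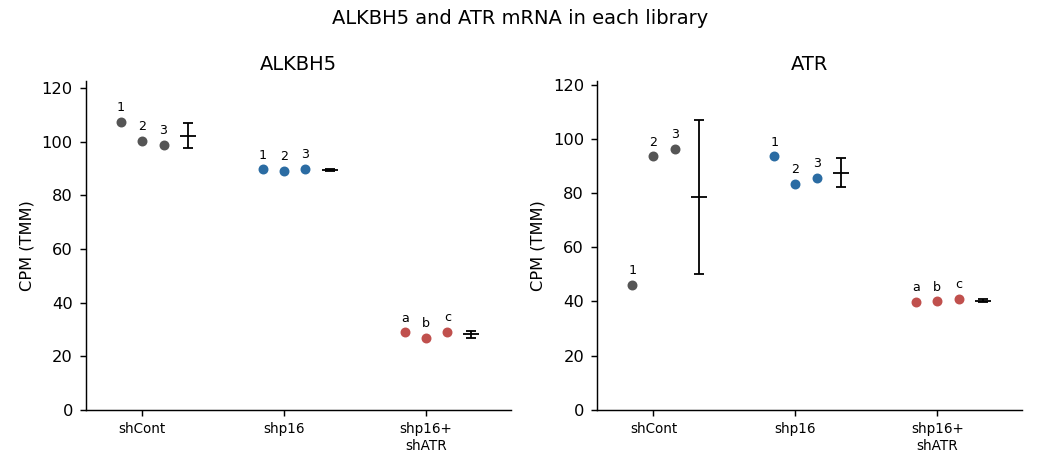
ALKBH5 (left) and ATR (right) in CPM after TMM scaling, with linear axes from 0. Points are libraries named by replicate (1 to 3) or by letter (a to c), and bars give mean and SD (n = 3). The library labelled shCont replicate 1 is low for ATR, at 45.9 CPM, and highest for ALKBH5, at 107.5 CPM.

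The within-group spread of ALKBH5 was small. Its pooled within-group SD was 0.0529 on the log2 CPM scale, at the 1.36th percentile of all genes tested, where the median gene had 0.212. YTHDF1 (0.0545) and YTHDF2 (0.0654) were as steady, and METTL3 was the least steady member, with 0.311 at the 78.7th percentile. These values are after TMM scaling, and the percentiles take in genes of all levels. In FPKM, ALKBH5 was at 30.6, 33.3 and 33.5 in the shp16 libraries.

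FTO (ENSG00000140718), the other demethylase, was a gene of low level. It was at 16.9, 20.5 and 26.6 CPM in shCont, at 26.9, 21.9 and 20.2 CPM in shp16, and at 18.0, 17.0 and 19.4 CPM in shp16+shATR. The shp16+shATR libraries were all below the shp16 libraries and within the range of shCont. The log2 fold change was -0.34 against shp16 (SE 0.170, 95% confidence interval -0.71 to 0.03, adjusted p = 0.291) and -0.23 against shCont (SE 0.170, adjusted p = 0.355), and neither passed. The second passed without the libraries labelled shCont replicate 1 and shp16 replicate 1, at -0.39 (adjusted p = 0.00611). FTO was thus not higher in the libraries in which ALKBH5 was low.

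Per unit of length, ALKBH5 was the main eraser mRNA in every library. Dividing ALKBH5 by FTO FPKM gave 21.4 ± 5.69 for shCont, 16.9 ± 2.42 for shp16 and 6.66 ± 0.249 for shp16+shATR (SD, n = 3). ALKBH5 made up 95.3%, 94.4% and 86.9% of the summed FPKM of the pair in these groups. The sum of the pair was 39.0, 34.4 and 11.8 FPKM. ALKBH5 thus remained the larger share of eraser mRNA in shp16+shATR, although the ALKBH5 value, for which the gene was picked, enters each of these ratios. The ratios also rest on the gene lengths used, 2748 bases for ALKBH5 and 11766 for FTO. In CPM the means of ALKBH5 and FTO in shp16+shATR were closer, at 28.2 and 18.1.

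None of the 9 members other than ALKBH5 passed in any of the 3 comparisons. In shp16 against shCont 0 of 9 passed, where 14.8% of all genes did. With ATR knockdown added to shp16, 0 of 9 passed, where 6.22% of all genes did. Between shp16+shATR and shCont 0 of 9 passed, where 23.6% of all genes did. At an unadjusted p under 0.05 the counts were 0, 0 and 1. DESeq2 called 0 of these members in each comparison as well. Without the libraries labelled shCont replicate 1 and shp16 replicate 1, the counts were 2 (YTHDC2 and YTHDF2), 1 (YTHDF3) and 4 (FTO, WTAP, YTHDC2 and YTHDF3), where 32.7%, 26.7% and 44.3% of all genes passed. The median log2 fold change of the 9 was -0.06, 0.03 and -0.04 in the 3 comparisons, beside -0.02, 0.00 and -0.02 over all genes tested.

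**Figure D3:**
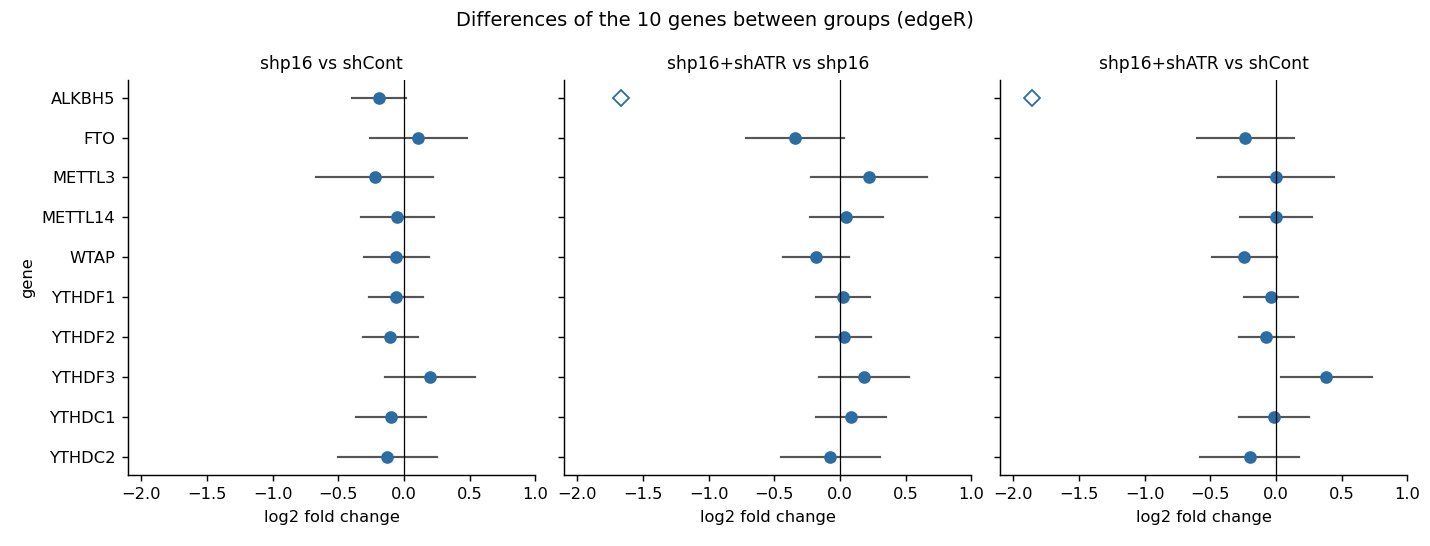
Log2 fold change of each gene in the 3 comparisons from edgeR, on a linear axis of log2 units. Filled points have lines for their 95% confidence intervals, and open diamonds are ALKBH5 where it was picked for its difference and has no interval. Apart from ALKBH5 the values lie between -0.34 and 0.38, and the YTHDF3 interval in shp16+shATR against shCont is the only one that leaves out 0.

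Among the writers, METTL3 (ENSG00000165819) varied more between replicates than between groups. It was at 31.5, 38.9 and 30.6 CPM in shCont, at 19.6, 31.8 and 35.0 CPM in shp16, and at 35.2, 38.2 and 27.3 CPM in shp16+shATR. Only shp16 replicate 1 was below the other libraries. The log2 fold change was -0.22 in shp16 against shCont (95% confidence interval -0.67 to 0.22) and 0.22 in shp16+shATR against shp16 (95% confidence interval -0.22 to 0.66). METTL3 shares 1043 bases of its locus with TOX4 on the opposite strand, at 57.5 to 70.9 CPM, and whether counting used strand is not stated.

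METTL14 (ENSG00000145388), the partner of METTL3, was at 17.1, 21.1 and 22.6 CPM in shCont, at 20.9, 18.8 and 19.0 CPM in shp16 and at 19.8, 19.6 and 21.3 CPM in shp16+shATR. The groups overlapped in every comparison. The difference from shp16 in shp16+shATR was 0.05 on the log2 scale (95% confidence interval -0.23 to 0.33).

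WTAP (ENSG00000146457), the adaptor, was at 48.3, 49.0 and 55.0 CPM in shCont, at 54.1, 43.6 and 48.3 CPM in shp16 and at 45.6, 40.9 and 42.1 CPM in shp16+shATR. The shp16+shATR libraries were below all shCont libraries and overlapped with shp16. Neither log2 fold change passed, at -0.24 against shCont (SE 0.114, adjusted p = 0.148) and -0.18 against shp16 (SE 0.114, adjusted p = 0.416). Without the library labelled shCont replicate 1 the first passed, at -0.28 (adjusted p = 0.0439). WTAP shares 30735 bases of its locus with SOD2 on the opposite strand, at 79.0 to 120.7 CPM, so reads of the pair may not be separable.

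The ratio of writer to eraser FPKM followed the ALKBH5 level. METTL3 plus METTL14 over ALKBH5 plus FTO came to 0.477 ± 0.0647 for shCont, 0.477 ± 0.0890 for shp16 and 1.58 ± 0.236 for shp16+shATR (SD, n = 3). It ran from 1.34 to 1.81 in shp16+shATR and was at most 0.545 elsewhere. The ALKBH5 value enters this ratio, so it is a restatement of levels in mRNA and says nothing on enzyme activity.

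The cytoplasmic readers were among the more abundant members. YTHDF1 (ENSG00000149658), often linked to translation of bound mRNA, was at 86.2, 91.9 and 88.6 CPM in shCont, at 80.3, 86.5 and 89.1 CPM in shp16 and at 88.7, 85.2 and 85.9 CPM in shp16+shATR. Its log2 fold change in shp16+shATR against shp16 was 0.02 (95% confidence interval -0.18 to 0.23). This interval was the narrowest of the 9 tested members in that comparison.

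YTHDF2 (ENSG00000198492), the reader tied to mRNA decay, was at 161.9, 158.3 and 158.8 CPM in shCont, at 161.8, 139.3 and 145.1 CPM in shp16 and at 152.1, 150.4 and 152.4 CPM in shp16+shATR. The shp16+shATR libraries were all below the shCont libraries, by little, and lay within the range of shp16. Its log2 fold change was 0.03 in shp16+shATR against shp16 (95% confidence interval -0.18 to 0.24) and -0.07 against shCont (SE 0.0958, adjusted p = 0.620). Its log2 difference of -0.10 in shp16 against shCont (adjusted p = 0.515) passed only without the libraries labelled shCont replicate 1 and shp16 replicate 1, at -0.16 (adjusted p = 0.0327).

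YTHDF3 (ENSG00000185728), the third of these paralogs, was highest where ALKBH5 was lowest. It was at 63.7, 100.7 and 102.3 CPM in shCont, at 107.5, 97.9 and 100.6 CPM in shp16 and at 112.9, 117.7 and 117.3 CPM in shp16+shATR. All shp16+shATR libraries were above all others, and the library labelled shCont replicate 1 was far below the rest. The log2 fold change was 0.19 in shp16+shATR against shp16 (SE 0.157, adjusted p = 0.571) and 0.38 against shCont (SE 0.157, unadjusted p = 0.0315, adjusted p = 0.1004), and neither passed. Without the libraries labelled shCont replicate 1 and shp16 replicate 1 both passed, at 0.22 (adjusted p = 0.00461) and 0.18 (adjusted p = 0.00864).

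By FPKM, YTHDF3 made up 17.3%, 20.5% and 22.4% of the summed level of the 3 YTHDF genes in shCont, shp16 and shp16+shATR. YTHDF2 made up 55.4%, 52.7% and 51.6%. The summed level was 99.0 ± 8.00, 96.0 ± 2.26 and 100.5 ± 1.27 FPKM (SD, n = 3). The sums in shp16+shATR lay within the range of shCont.

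YTHDC1 (ENSG00000083896), the nuclear reader, was at 48.1, 54.8 and 62.4 CPM in shCont, at 46.2, 56.0 and 52.1 CPM in shp16 and at 56.9, 54.0 and 52.5 CPM in shp16+shATR. The groups overlapped in every comparison. Between shp16+shATR and shp16 it had a log2 fold change of 0.08 (95% confidence interval -0.18 to 0.35).

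YTHDC2 (ENSG00000047188), the helicase, was at 37.4, 63.3 and 64.4 CPM in shCont, at 48.9, 52.3 and 50.2 CPM in shp16 and at 49.0, 47.7 and 47.1 CPM in shp16+shATR. The library labelled shCont replicate 1 was the lowest of the 9 and the other shCont libraries were the highest. With all libraries its log2 fold change in shp16 against shCont was -0.13 (SE 0.172, adjusted p = 0.674). Without the library labelled shCont replicate 1 it passed, at -0.35 (SE 0.0665, adjusted p = 0.00284), where 25.9% of all genes passed. Between shp16+shATR and shCont it was -0.20 (adjusted p = 0.442) with all libraries and -0.42 (adjusted p = 0.00049) without that replicate. Its call thus depended on 1 library.

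Groups did not overlap for 0 of the other 9 members in shp16 against shCont, for 2 in shp16+shATR against shp16 (FTO lower, YTHDF3 higher) and for 3 in shp16+shATR against shCont (WTAP and YTHDF2 lower, YTHDF3 higher). Over all genes tested groups did not overlap for 33.6%, 37.7% and 41.5%. Separated by direction, the shares were 17.6% higher and 20.1% lower in shp16+shATR against shp16, and 20% higher and 21.5% lower against shCont. The members' counts were thus not above the background.

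Ordered by FPKM within shCont, the members ran from YTHDF2, at 54.7 ± 1.52, to FTO, at 1.82 ± 0.450 (SD, n = 3). ALKBH5 followed YTHDF2 at 37.2 ± 0.855 FPKM, in the 88.4th percentile of all genes tested. YTHDF1 was at 27.0, YTHDF3 at 17.4, WTAP at 13.9, METTL3 at 13.4, YTHDC1 at 8.88, YTHDC2 at 8.28 and METTL14 at 5.24 FPKM. Neighbours in this order whose libraries overlapped were YTHDF3 and WTAP, WTAP and METTL3, YTHDC1 and YTHDC2, and YTHDC2 and METTL14. In shp16 ALKBH5 was again the second at 32.5 ± 1.61 FPKM. In shp16+shATR it was the sixth, at 10.2 ± 0.338 FPKM, behind YTHDF2, YTHDF1, YTHDF3, METTL3 and WTAP. The order depends on the gene lengths used: in CPM, FTO was above METTL14 in shCont, at 21.3 and 20.3.

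The m6A machinery holds more parts than these 10 genes. A further 48 genes in 7 lists were taken by function, some of them relatives or partners of the machinery and not parts of it. All 48 passed the filter on low counts. In shp16 against shCont 5 of the 48 passed as higher, beside 7.23% of all genes, and 2 as lower, beside 7.59%. With the ATR hairpin added to shp16, 0 passed as higher and 3 as lower, beside 2.73% and 3.49% of all genes. Between shp16+shATR and shCont 2 were higher and 5 lower, beside 10.9% and 12.7%, and this comparison shares its libraries with the other two. The medians of the 48 log2 fold changes in the 3 comparisons were 0.08, -0.10 and -0.02, beside -0.02, 0.00 and -0.02 over all genes tested.

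**Figure D4:**
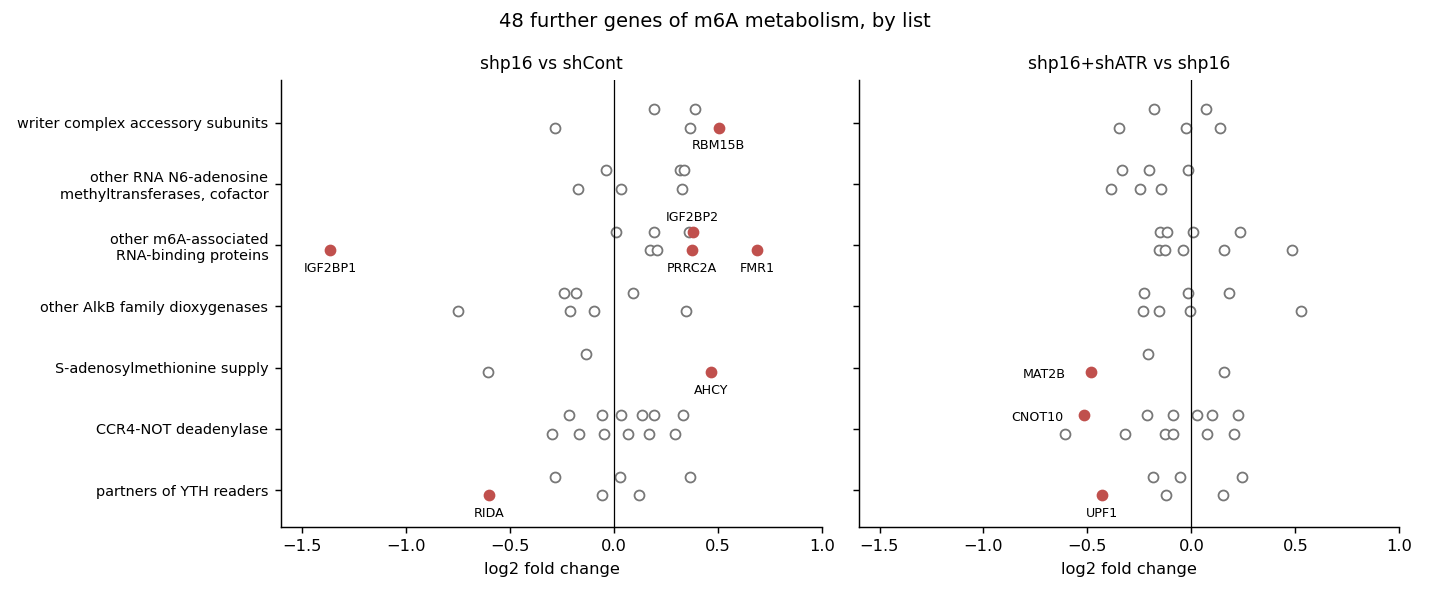
Log2 fold changes of 48 further genes, of the m6A machinery or related to it, from edgeR, 1 point per gene, by list. The left panel is shp16 against shCont and the right panel shp16+shATR against shp16. Filled and named points passed at an adjusted p under 0.05. On the left 7 are filled, on both sides of 0, and on the right 3 are filled, all below 0.

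Of the 5 accessory subunits of the writer complex (VIRMA, RBM15, RBM15B, ZC3H13 and CBLL1), RBM15B rose in shp16 against shCont and the other 4 did not pass. RBM15B, an RNA-binding subunit that guides the complex to its targets, was at 55.9, 48.9 and 52.5 CPM in shCont and at 84.9, 66.7 and 71.7 CPM in shp16. The log2 fold change was 0.50 (SE 0.113, adjusted p = 0.0124), and without shCont replicate 2 it no longer passed (adjusted p = 0.0522). After the addition of shATR 0 of these 5 passed. In these comparisons 14.8% and 6.22% of all genes tested passed.

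Of the 6 other RNA N6-adenosine methyltransferases and their cofactor, 0 passed in any comparison, where 14.8%, 6.22% and 23.6% of all genes tested did. All 6 had a log2 fold change below 0 in shp16+shATR against shp16, from -0.39 to -0.02 with a median of -0.23. Of all 15776 genes, 7839 were below 0 in this comparison. METTL16, which methylates U6 RNA and the MAT2A mRNA, had means of 26.9 ± 2.23, 33.5 ± 3.03 and 30.3 ± 2.31 CPM in the 3 groups (SD, n = 3). Its log2 fold change was 0.32 in shp16 against shCont (adjusted p = 0.0921) and -0.14 in shp16+shATR against shp16 (adjusted p = 0.550).

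Among 9 other RNA-binding proteins linked to m6A, FMR1, IGF2BP2 and PRRC2A rose and IGF2BP1 fell in shp16 against shCont. Of all genes tested, 7.23% passed as higher and 7.59% as lower in this comparison. FMR1, a regulator of translation in neurons and other cells, was at 26.4, 44.6 and 49.2 CPM in shCont, at 64.3, 62.9 and 66.6 CPM in shp16 and at 89.6, 91.4 and 89.9 CPM in shp16+shATR. Its 3 groups stood in steps without overlap. The log2 fold change was 0.69 in shp16 against shCont (SE 0.182, adjusted p = 0.0262) and 0.48 in shp16+shATR against shp16, which did not pass (SE 0.180, adjusted p = 0.151). Both passed without the library labelled shCont replicate 1, at 0.46 (adjusted p = 0.000729) and 0.48 (adjusted p = 0.000224). With any 1 of the shp16 libraries left out the first did not pass (adjusted p between 0.0655 and 0.0801).

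IGF2BP2, a stabiliser of bound mRNA, had a log2 fold change of 0.38 (adjusted p = 0.0308) and PRRC2A, a large cytoplasmic m6A-binding protein, one of 0.38 (adjusted p = 0.0371). IGF2BP1, a paralog of IGF2BP2, was scarce, at 4.15, 3.49 and 3.10 CPM in shCont and at 0.831, 1.57 and 1.75 CPM in shp16. It had the largest difference of the 48, with a log2 fold change of -1.36 (SE 0.278, adjusted p = 0.00724). Of these 9, 0 passed between shp16+shATR and shp16, where 6.22% of all genes tested did. Without shp16 replicate 1, IGF2BP2 and PRRC2A did not pass (adjusted p = 0.0772 and 0.0831). Without both this library and the one labelled shCont replicate 1 they passed, at 0.26 (adjusted p = 0.00124) and 0.27 (adjusted p = 0.000947). These 2 genes passed in 10 of 20 alternative fits each, and IGF2BP1 in 19 of 20.

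Of the 7 other AlkB family dioxygenases, relatives of ALKBH5, 0 passed in any comparison, where 14.8%, 6.22% and 23.6% of all genes tested did. Their log2 fold changes in shp16+shATR against shp16 ran from -0.23 to 0.53 with a median of -0.02.

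The supply of S-adenosylmethionine, the methyl donor of the writers, was followed in 3 genes. AHCY, which clears S-adenosylhomocysteine, the product that is left after methyl transfer, rose in shp16 against shCont, from 178 to 246 CPM, with a log2 fold change of 0.47 (SE 0.138, adjusted p = 0.0426). Its highest shp16 library was replicate 1, at 302.7 CPM beside 214.2 and 220.2 CPM, and without it the log2 fold change was 0.29 and did not pass (adjusted p = 0.116). Without both this library and the one labelled shCont replicate 1, AHCY passed, at 0.35 (adjusted p = 0.000228). Without shCont replicate 2 or 3 it did not (adjusted p = 0.111 and 0.0932), and it passed in 10 of 20 alternative fits. MAT2B, the regulatory subunit of the synthetase, was at 80.4, 77.3 and 78.4 CPM in shp16 and fell to 54.5, 56.7 and 57.6 CPM in shp16+shATR. Its log2 fold change was -0.48 (SE 0.107, adjusted p = 0.0221). MAT2A, the catalytic subunit, was at 345.8, 403.2 and 359.6 CPM in shCont, at 148.3, 295.5 and 284.1 CPM in shp16 and at 281.7, 311.7 and 218.2 CPM in shp16+shATR. It did not pass in shp16 against shCont (-0.61, SE 0.224, adjusted p = 0.0933) or in shp16+shATR against shp16 (0.16, SE 0.224, adjusted p = 0.768). The lowest shp16 library for MAT2A was replicate 1, which was also the lowest for METTL3.

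Of 12 genes of the CCR4-NOT deadenylase, which YTHDF2 recruits, 0 passed in shp16 against shCont and CNOT10 fell in shp16+shATR against shp16. In these comparisons 14.8% and 6.22% of all genes tested passed. CNOT10 was at 33.7, 24.5 and 25.4 CPM in shp16 and at 17.7, 20.2 and 20.4 CPM in shp16+shATR, with a log2 fold change of -0.52 (SE 0.138, adjusted p = 0.0486).

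Of 6 further partners of YTH readers, RIDA (HRSP12 in the table) fell in shp16 against shCont and UPF1 fell in shp16+shATR against shp16. In these comparisons 7.59% and 3.49% of all genes tested passed as lower. RIDA, which bridges YTHDF2 to an endonuclease, was at 15.8, 10.7 and 13.3 CPM in shCont and at 8.83, 8.06 and 9.46 CPM in shp16, a log2 fold change of -0.60 (SE 0.168, adjusted p = 0.0342). RIDA passed in 11 of 20 alternative fits, and with any 1 of the shp16 libraries left out it did not pass (adjusted p between 0.0711 and 0.123). Without both the libraries labelled shCont replicate 1 and shp16 replicate 1 it passed, at -0.46 (adjusted p = 0.0298). UPF1, the helicase of nonsense-mediated decay, was at 183.6, 167.9 and 170.8 CPM in shp16 and at 123.1, 134.1 and 130.2 CPM in shp16+shATR, a log2 fold change of -0.43 (SE 0.0960, adjusted p = 0.0225).

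These 3 calls changed when single libraries were left out. With any 1 of the shp16 or shp16+shATR libraries left out, the adjusted p was between 0.0593 and 0.155 for UPF1, between 0.0642 and 0.133 for MAT2B and between 0.0679 and 0.223 for CNOT10. Without the library labelled shCont replicate 1 it was 0.000812, 0.000215 and 0.0109.

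On chromosome 17, the 5 nearest tested genes on either side of ALKBH5 did not share the size of its difference. With shATR added to shp16, TOP3A, a topoisomerase of DNA repair, had a log2 fold change of -0.53 (SE 0.103, adjusted p = 0.0115) and LLGL1, a cell polarity gene, one of -0.45 (SE 0.120, adjusted p = 0.0478). The other 8 did not pass. Of all genes tested, 6.22% passed in this comparison, 3.49% as lower. For TOP3A and LLGL1, values without single libraries are not given here. DRG2, the nearest upstream, was at -0.01 and GID4, FLII, SMCR8 and SMCR7 were at -0.04, -0.11, -0.08 and 0.01. ATPAF2 was at 0.25, LRRC48 at -0.45 and AC122129.1 at 0.24, the last of these at about 1.16 CPM in shp16+shATR. A gene antisense to ALKBH5 was at most at 0.0884 CPM in any library.

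**Figure D5:**
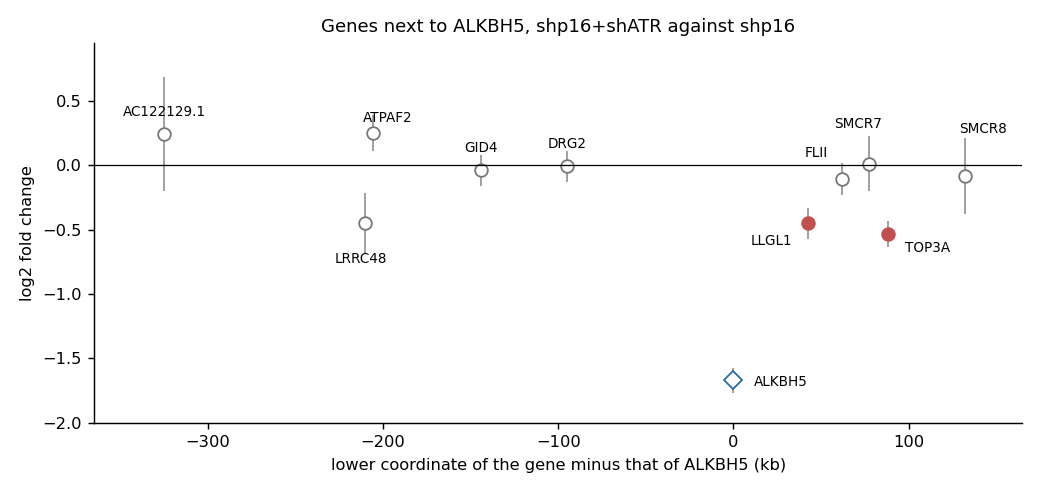
Log2 fold change in shp16+shATR against shp16 of ALKBH5 (open diamond) and of the 5 nearest tested genes on either side, with SE bars, by position relative to ALKBH5 in kb. Filled points (LLGL1 and TOP3A) passed at an adjusted p under 0.05. ALKBH5 is at -1.67 and its neighbours lie between -0.53 and 0.25.

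The genes whose pattern over the 9 libraries was most like that of ALKBH5 were sought among 10736 others with a mean of at least 5 CPM. The measure was the root mean square difference of log2 CPM after centring each gene on its mean over the 9 libraries. The 5 nearest were PWP1 (0.194), LZTS1 (0.221), UBR7 (0.264), DEPDC1B (0.268) and GPR3 (0.273), where the median gene was at 0.847. PWP1, a WD repeat protein of ribosomal RNA transcription, was at 118 ± 10.5, 110 ± 7.64 and 43.0 ± 3.59 CPM in the 3 groups (SD, n = 3). LZTS1, a leucine zipper protein, was at 329 ± 23.9, 327 ± 25.1 and 130.4 ± 0.814 CPM. UBR7, a ubiquitin ligase, was at 35.0, 34.4 and 14.4 CPM. These 5 share the libraries, and their likeness follows mainly from low values in shp16+shATR. No member was among them: the nearest other member was at 0.735, with 2091 genes nearer.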

How the data were processed

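RNA was sequenced from 9 libraries of SKMEL28 cells, 3 per group, grouped by the labels. The authors deposited raw read counts per gene and FPKM values. FPKM equalled count over gene length and library total, with a largest relative difference of 4.22e-07. The submitters' processing notes name STAR 2.6.1, DESeq2 (given as version 2) and GRCh38, but 248 of 45341 genes shared with GENCODE 29 lay at their GRCh38 position. The counting program and its use of strand are not given in the sources used here. The 3 shp16+shATR count columns share 1 name and are called libraries a, b and c.

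In R 4.3.3 with edgeR 4.0.16, counts were TMM-scaled, filtered with filterByExpr and given a quasi-likelihood test on all 9 libraries together, over 15776 genes. Between libraries of a group no pair agreed within sampling noise. Alternatives were DESeq2 1.42.0, limma 3.58.1 on log2(FPKM + 1) and log2(FPKM + 0.1), other scalings and filters, a replicate block and leaving out libraries. The fit was tested on simulated data, where 53 of 67 genes changed 2-fold and 25 of 67 changed 1.5-fold were found.

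The 10 members, the 7 lists and the tests were chosen with earlier results of these data known. Named besides the members are the targeted genes, list genes past the threshold (up to 4 per list and comparison), MAT2A, METTL16, 5 genes of like pattern and 5 neighbours on each side. Promoter sequence is from RefSeq (GRCh38.p14). Python 3.11.15 with pandas 2.3.3 was used for summaries.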

Additional observations from a re-analysis of the deposited data

How the results depend on the processing

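ALKBH5 stayed lower in shp16+shATR in all 19 alternatives with a value, by -1.69 to -1.57 on the log2 scale against shp16 and -1.89 to -1.77 against shCont. The gene was picked for this difference in the same libraries, so these fits describe its size and do not test it. The smallest differences are from limma on log2(FPKM + 1), with and without the replicate block, at -1.57 and -1.77. Deviations of same-numbered libraries had correlations of -0.337 to 0.319 over 9 pairs, and those of differently numbered ones ran from -0.399 to 0.462. The numbers thus gave no sign of pairing, which this check cannot exclude. The shp16+shATR count columns carry no number, so the replicate block was fitted on their FPKM values, and on counts for shp16 against shCont. Of 608 values of single genes, 565 kept their direction and side of the threshold, 11 passed only under the alternative, and 28 changed sign.

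Members called in shp16 against shCont were 0 to 1 with single libraries left out and 2 without both the libraries labelled shCont replicate 1 and shp16 replicate 1, an alternative chosen after seeing the data. Between shp16+shATR and shp16 they were 0 and 1. Against shCont they were 0 to 2 and 4, and 1 (YTHDF3, adjusted p = 0.0435) with no filter on low counts. The calls without shCont replicate 1 were YTHDC2 and, against shCont, WTAP. Genes of the wider lists called in shp16 against shCont were 2 to 16 with single libraries left out (16 without shCont replicate 1), 22 without both, 1 with only the groups compared, 0 with the replicate block and 1 at an adjusted p of 0.01. With shATR added to shp16 they were 0 to 11 (11 without shCont replicate 1), 15 without both, 5 with no filter, 10 with only the groups compared, 1 with limma and the replicate block and 0 at 0.01. Against shCont they were 6 to 15, and 22 without both. Of all genes, 25.9%, 19.9% and 33.3% passed in these comparisons, in order, without shCont replicate 1, and 32.7%, 26.7% and 44.3% without both. With other single libraries left out the shares were 8.29% to 14.3%, 1.81% to 5.94% and 14.5% to 24.2%. With only the groups compared they were 7.83%, 18.9% and 19.7%, and with limma and the replicate block 9.59%, 3.05% and 18.9%. With no filter on low counts, 4.39% of all genes passed in shp16+shATR against shp16 and 14.1% against shCont. The cause of these shifts was not tested.

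No value that changed sign had passed the test in the report. In shp16+shATR against shCont, METTL3 was at 0.0099 with DESeq2 and 0.0057 with at least 10 counts in every library. METTL14 was there at 0.014 and 0.0070 in the same fits, at 0.00017 with only the groups compared, at 0.0013 with limma on log2(FPKM + 1), with or without the replicate block, and at 0.0037 with log2(FPKM + 0.1). Over the fits without single libraries or without both, the ranges in shp16 against shCont were -0.17 to 0.30 for FTO, -0.21 to 0.035 for METTL14, -0.18 to 0.017 for WTAP, -0.034 to 0.31 for YTHDF3, -0.19 to 0.0011 for YTHDC1 and -0.35 to 0.0043 for YTHDC2. With shATR added to shp16 they were -0.026 to 0.052 for YTHDF1 and -0.019 to 0.091 for YTHDF2. Against shCont they were -0.11 to 0.13 for METTL3, -0.12 to 0.083 for METTL14 and -0.12 to 0.081 for YTHDC1. In simulated counts 25 of 67 genes changed 1.5-fold were found, so differences of that size or less could be missed at this depth and number of libraries.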
